A study of Mus musculus with 12 samples.

Results

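The 7 sirtuin genes, Sirt1 to Sirt7, were followed through the H3K36ac peak lists of WT and Sirt7-/- spermatogonia. Members were matched by symbol in RefSeq's gene table for the assembly GRCm38.p6, whose coordinates are those of mm10, and all 7 were found among 21440 protein-coding genes of known strand. A start peak is a peak with at least 1 bp within 3000 bp of the gene start, and a gene-body peak is one elsewhere in the gene. H3K36ac, the acetylation of lysine 36 of histone H3, was mapped by ChIP-seq in 3 WT and 3 Sirt7-/- samples (replicates 2, 3 and 4 of each) of 50000 cells from testes at postnatal day 5 (Pnd 5). All mice shared 1 inbred background, each sample came from a different mouse, and no treatment is given in the labels. The structure of the deleted Sirt7 allele was not described in the sources used here. Cells were enriched for spermatogonia by plating without sorting, so testicular somatic cells may remain in every sample. The values are the authors' peak lists, called per sample with its input as control. They hold no reads or coverage, so no counting error could be given for a call, and an absent peak does not show that the mark was absent.

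Sirtuins are NAD+-dependent deacylases. They remove acetyl or other acyl groups from lysines and use up NAD+ in the reaction, which ties their activity to metabolism. Members differ in where they act, on chromatin, in the cytoplasm or in mitochondria, and histones are substrates of the nuclear ones. SIRT7 deacetylates H3K36ac, the modification mapped here. The question was whether the other sirtuin genes carried calls of the mark when Sirt7 was deleted.

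Among the 6 other sirtuins, start peaks were called at Sirt1, Sirt4 and Sirt6 and at none of Sirt2, Sirt3 and Sirt5. WT replicates 2, 3 and 4 had start peaks at 2, 0 and 1 of them, and Sirt7-/- replicates 2, 3 and 4 at 2, 3 and 3. The mean was 1 ± 1 in WT and 2.67 ± 0.577 in Sirt7-/- samples (SD, n = 3 each), and the groups met at 2. The difference of 1.67 turned to -0.333 when peaks under 500 bp were left out and to 0 when each list was cut to its best 64 peaks by -log10 q. At that cut no sirtuin was called in any sample, so it cannot compare the genotypes. There 0.779% of all protein-coding genes had a start peak in any Sirt7-/- sample and 0.84% in any WT sample. The lists themselves differ in length, from 64 to 906 peaks in WT and from 2045 to 2840 in Sirt7-/- samples. Over all 21440 protein-coding genes, 4.38%, 0.312% and 1.35% had a start peak in WT replicates 2, 3 and 4, and 13.2%, 9.73% and 11.7% in the Sirt7-/- replicates. At these shares 6 genes would hold 0.121 called starts in a WT sample and 0.694 in a Sirt7-/- sample on average. Both genotypes lay above that share, and the members are too few to read more from it. Start peaks were called in more Sirt7-/- than WT samples for Sirt1, Sirt4 and Sirt6, 3 of the 6 genes against 18.2% of all genes, and in more WT samples for none of them, against 0.508%. All 3 Sirt7-/- samples were called at Sirt4 and Sirt6 (5.09% of all genes), and at least 2 WT samples at Sirt4 (0.821%). Sirt7 itself had no start peak in any of the 6 samples.

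With all listed peaks counted, Sirt6 was the sirtuin whose calls separated the genotypes. With a -log10 q of at least 2 it was Sirt4 instead. SIRT6 is a nuclear deacetylase of histone H3 known for roles in DNA repair and telomere chromatin. The gene lies on the minus strand of chromosome 10, from 81621787 to 81627792. The 3 Sirt7-/- lists each held a start peak there and the 3 WT lists held none, a difference with p = 0.1 by a two-sided Fisher's exact test. No lower p can be reached with these sample numbers, and it was 1 after Benjamini-Hochberg adjustment over the 21440 genes. This pattern was that of 525 protein-coding genes, 2.45% of those tested. By this test 0 of the 21440 genes passed 0.05, with or without the adjustment.

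The Sirt6 peaks were weak within their lists. In Sirt7-/- replicate 2 the peak ran from 81627306 to 81627517, was 212 bp wide and had a fold over input of 3.69, rank 2214 of 2840. In replicate 3 it ran from 81627427 to 81628027, was 601 bp wide and had a fold of 4.35, rank 1462 of 2045. In replicate 4 it ran from 81627063 to 81627527, was 465 bp wide and had a fold of 4.003, rank 1452 of 2591. The fold lay below the median of its own list in every one of these samples (medians of 4.05, 4.68 and 4.07). The -log10 q was 1.70, 1.85 and 1.89, so that all 3 calls were lost when a -log10 q of at least 2 was required.

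The start of Sirt6 in the gene table, at 81627792, faces that of Ankrd24, a gene for an ankyrin-repeat protein, on the other strand 29 bp away. The promoter table gives Sirt6 2 further starts, 226 and 470 bp inside the gene. The peaks of replicates 2 and 4 covered the inner of these starts and ended 304 and 294 bp short of the Ankrd24 start, whereas the peak of replicate 3 covered both gene starts. The calls cannot be assigned to one gene of the pair on position alone in replicate 3, and in replicates 2 and 4 they lay within Sirt6. The peak of replicate 3 covered the whole promoter window around the Sirt6 start at 81627566. Those of replicates 2 and 4 reached only its downstream edge, up to 81627517 and 81627527, and held none of its motif matches. The window is shown here (GRCm38.p6, minus strand, chr10:81627517-81627816, 5′ to 3′, capitals marking the motif matches described further on).
Sirt6 promoter: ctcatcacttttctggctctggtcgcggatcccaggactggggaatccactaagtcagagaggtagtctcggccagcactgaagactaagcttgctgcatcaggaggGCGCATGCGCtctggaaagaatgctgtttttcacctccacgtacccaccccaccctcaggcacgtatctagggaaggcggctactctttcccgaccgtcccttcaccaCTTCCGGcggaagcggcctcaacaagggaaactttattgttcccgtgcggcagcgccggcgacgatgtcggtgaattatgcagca
The 3 Sirt7-/- peaks had 91 bp in common, 49 to 139 bases downstream of that start, with 8 CpG dinucleotides and 62.6% G and C. This stretch is shown as the sequence that every Sirt6 call contained (minus strand, chr10:81627427-81627517, CpG in capitals).
Sirt6 shared stretch: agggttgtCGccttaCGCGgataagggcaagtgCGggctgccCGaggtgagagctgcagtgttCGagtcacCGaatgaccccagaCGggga

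**Figure D1:**
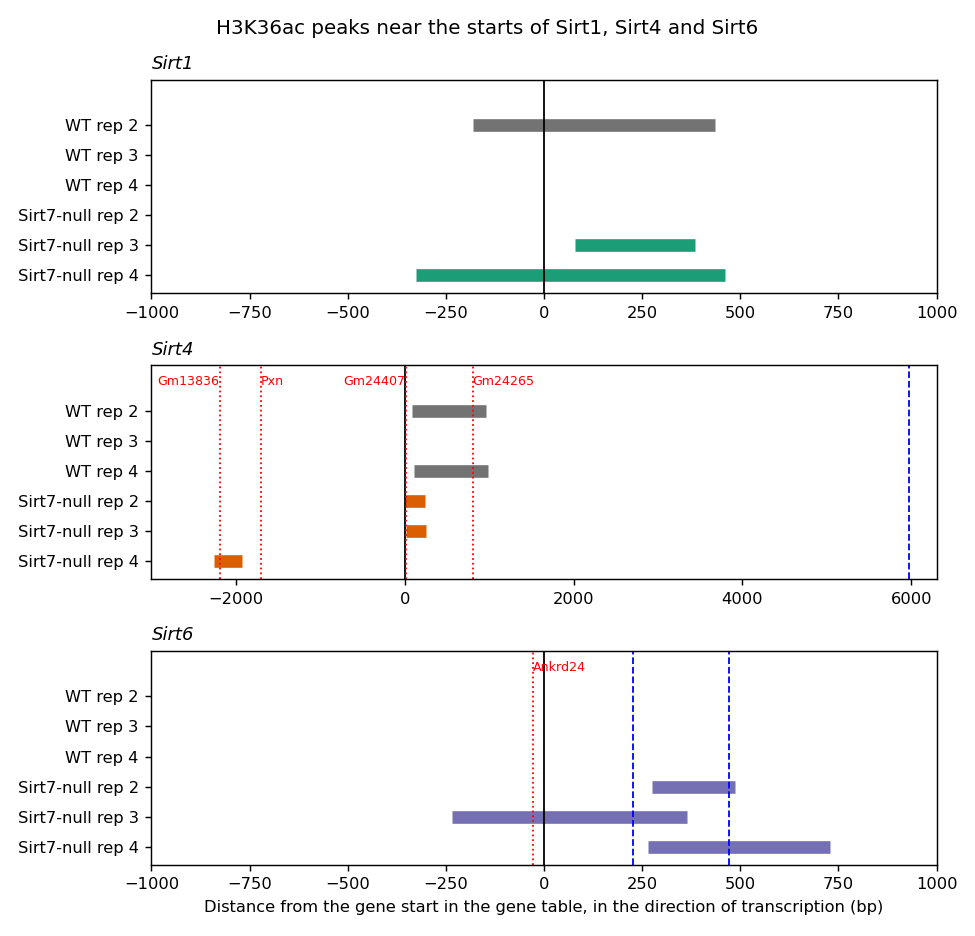
Position of the H3K36ac peaks near Sirt1, Sirt4 and Sirt6 in each sample, as distance in bp from the gene start of the gene table in the direction of transcription (grey bars, WT; coloured bars, Sirt7-/-; solid line, gene start; dashed blue lines, further starts of the promoter table; dotted red lines, starts of other genes). The Sirt6 panel has bars in the 3 Sirt7-/- samples only, the Sirt1 bars of both genotypes overlie one another, and the Sirt4 bars all lie 4981 bp or more from the start given by the promoter table. Sirt7-null in the labels of the plot stands for Sirt7-/-.

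Sirt1 was called in both genotypes. SIRT1, the most studied nuclear sirtuin, deacetylates histones, p53 and FOXO factors. Its gene lies on the minus strand of chromosome 10, from 63319005 to 63339035. In WT replicate 2 the start peak ran from 63338599 to 63339215, was 617 bp wide and had a fold of 4.60, rank 356 of 906. No Sirt1 peak was called in WT replicates 3 and 4 or in Sirt7-/- replicate 2. Sirt7-/- replicate 3 had a peak from 63338651 to 63338957, 307 bp wide, with a fold of 5.07, rank 654 of 2045. Sirt7-/- replicate 4 had the widest one, 788 bp from 63338573 to 63339360, with a fold of 3.45, rank 2492 of 2591. With 2 of 3 Sirt7-/- and 1 of 3 WT samples the genotypes overlapped (p = 1 by the same exact test). The narrowest peak lay wholly inside the other 2 peaks, and the WT peak lay wholly inside that of Sirt7-/- replicate 4. The WT peak and that of Sirt7-/- replicate 4 covered the gene start, and that of replicate 3 began 78 bp downstream of it. No other gene start lay within 3000 bp.

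The Sirt1 promoter was the most CpG-rich of the family. Its 300 bases, from 250 before to 50 after the start, held 47 CpG dinucleotides and 79.0% G and C, more CpG than 98.2% of the promoters of protein-coding genes. It is shown for comparison with the other promoters (chr10:63338986-63339285, minus strand, capitals marking GC boxes and E-boxes).
Sirt1 promoter: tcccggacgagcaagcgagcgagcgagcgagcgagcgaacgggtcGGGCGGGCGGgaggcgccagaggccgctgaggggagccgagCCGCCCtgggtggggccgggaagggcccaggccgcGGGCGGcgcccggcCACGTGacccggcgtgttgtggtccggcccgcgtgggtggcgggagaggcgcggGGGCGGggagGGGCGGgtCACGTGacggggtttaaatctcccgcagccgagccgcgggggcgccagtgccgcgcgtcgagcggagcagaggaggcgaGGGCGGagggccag

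The calls at Sirt4 depended on which start was taken for the gene. SIRT4 is a mitochondrial sirtuin that acts on amino acid metabolism. Sirt4 lies on the minus strand of chromosome 5, from 115478006 to 115490264, and by the gene table its start at 115490264 had a peak within 3000 bp in all 3 Sirt7-/- samples and in 2 of 3 WT samples (p = 1 by the exact test). The promoter table places the Sirt4 start at 115484297, which is 5967 bp further into the gene, and no sample had a peak within 3000 bp of that start. The distance from it to the called peaks was 4981 to 7900 bp.

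The WT peaks near the outer Sirt4 start were wide, and the Sirt7-/- peaks at it were narrow. WT replicate 2 had a peak of 885 bp from 115489299 to 115490183, with a fold of 4.01, rank 785 of 906. WT replicate 4 had one of 877 bp from 115489278 to 115490154, with a fold of 4.84, rank 177 of 294, and WT replicate 3 had none. Both WT peaks covered the start of the snRNA gene Gm24265. Sirt7-/- replicate 2 had a peak of 233 bp from 115490023 to 115490255, with a fold of 5.48, rank 136 of 2840. Sirt7-/- replicate 3 had one of 234 bp from 115490017 to 115490250, with a fold of 5.85, rank 232 of 2045. These narrow peaks shared 228 bp and lay 0 and 4 bp from the start of a second snRNA gene, Gm24407. In Sirt7-/- replicate 4 the peak stood apart, at 115492197 to 115492517, with a width of 321 bp and a fold of 4.64, rank 520 of 2591. It covered the start of the pseudogene Gm13836, which lies 2191 bp from the outer Sirt4 start. Its near edge was 227 bp inside Pxn, the gene for the focal adhesion protein paxillin, and 1933 bp upstream of the outer Sirt4 start. The calls counted for Sirt4 were therefore at 2 places, and no base was common to all 5 peaks. Apart from that of replicate 4, the 4 peaks shared 132 bp.

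The Sirt4 promoter at the inner start is shown because no peak reached it (chr5:115484248-115484547, minus strand). It held 15 CpG dinucleotides, 52.0% G and C and none of the motifs searched, so it has no capitals.
Sirt4 promoter: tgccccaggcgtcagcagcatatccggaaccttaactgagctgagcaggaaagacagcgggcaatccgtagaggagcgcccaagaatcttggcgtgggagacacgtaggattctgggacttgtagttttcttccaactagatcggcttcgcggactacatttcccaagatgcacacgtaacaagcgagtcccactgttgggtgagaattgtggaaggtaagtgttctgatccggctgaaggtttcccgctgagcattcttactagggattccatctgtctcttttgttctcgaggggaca

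Across Sirt1, Sirt4 and Sirt6, 11 start peaks were called, 8 in Sirt7-/- and 3 in WT samples. Their fold over input ran from 3.45 to 5.85 and their width from 212 to 885 bp. The fold was above the median of the sample's own list for 5 of the 11, namely 3 at Sirt4 and 2 at Sirt1. The median rank by fold was 56.0% of the list, counted from the highest, so that as a set they stood near the middle. Of the 11 peaks, 10 had their midpoint downstream of the gene start, and the exception was the one at Pxn. The genes most like each of them were those with the same calls in the 6 samples and the smallest mean difference in log2 fold over the calling samples. For Sirt1 (3 samples) these were Unk, Rlf and Jmy, at 0.08, 0.10 and 0.10, among 48 genes with its calls, Sirt1 included. For Sirt4 (5 samples) they were Pxn, which has the same peaks, and Rxrb and Slc39a7, both at 0.08, among 95 genes. For Sirt6 (3 samples) they included Ankrd24, which has the same peaks, and D830031N03Rik, at 0.03.

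**Figure D2:**
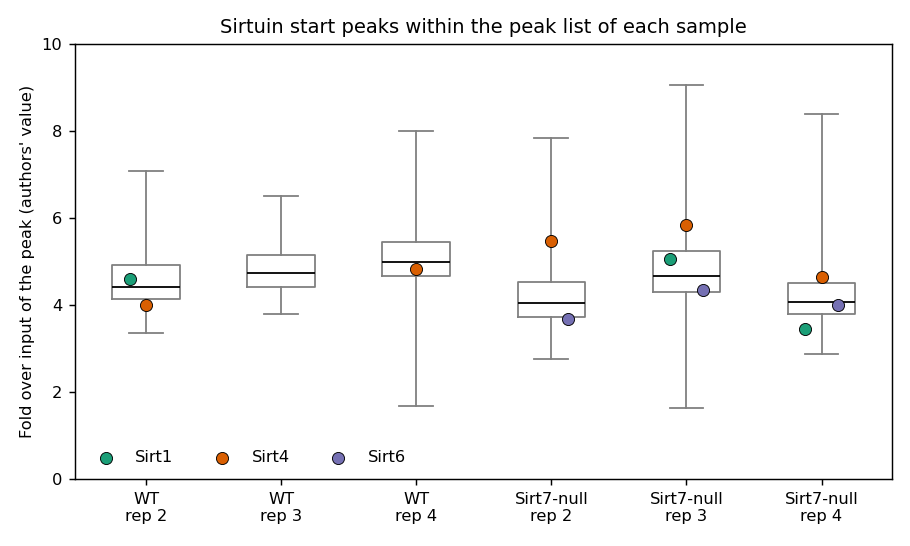
Fold over input of the start peaks of Sirt1, Sirt4 and Sirt6 (points) within the peak list of each sample (box, quartiles and median; whiskers, lowest and highest peak). The Sirt6 points lie below the median of their lists, the Sirt4 points of the Sirt7-/- samples lie above it, and WT replicate 3 has no sirtuin peak.

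No start peak was called at Sirt2, Sirt3, Sirt5 or Sirt7. This pattern was that of 80.3% of the protein-coding genes. SIRT2 deacetylates tubulin and other cytoplasmic proteins. Sirt2, on the plus strand of chromosome 7 from 28766752 to 28788665, starts 108 bp from the oppositely oriented Nfkbib, which encodes an inhibitor of NF-kappaB. In 4 of the 6 samples the nearest peak lay downstream, with Hnrnpl, a gene for an RNA-binding protein, as its nearest gene start. It was 42.1 kb away in WT replicate 2 and 41.6 and 42.0 kb away in Sirt7-/- replicates 2 and 3, at most 315 bp from the Hnrnpl start. The peak of WT replicate 3 was a separate one, 44.2 kb away and 2406 bp from the Hnrnpl start. WT replicate 4 had its nearest peak 2190 kb away, at Usf2, and Sirt7-/- replicate 4 had one 24.7 kb upstream, at Mrps12, a gene for a mitochondrial ribosomal protein.

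Sirt3 encodes the main mitochondrial deacetylase and starts 85 bp from Psmd13, a gene for a proteasome subunit. It lies on the minus strand of chromosome 7, from 140863663 to 140882309. No sample had a peak at the start shared by the pair. The nearest Sirt7-/- peaks were 24.5, 25.2 and 24.6 kb downstream in replicates 2, 3 and 4, beyond the end of the gene, at or within 93 bp of the start of Bet1l, a gene for a Golgi transport protein. The nearest WT peaks were 346, 43800 and 2036 kb away, in replicates 2, 3 and 4. The start of Bet1l, beyond the 3′ end of Sirt3, had a peak in every Sirt7-/- list and in no WT list. This pattern was that of 2.45% of all protein-coding genes, and the WT lists are the shorter ones.

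Sirt5, whose product removes succinyl and malonyl groups from mitochondrial proteins, lies on the plus strand of chromosome 13, from 43365389 to 43395203. In 5 of the 6 samples the nearest peak was 1313 to 5181 kb away, at Hivep1 in 3 of them, and in Sirt7-/- replicate 4 it was 115 kb downstream, at Ranbp9. Within 100 kb there were 2 further protein-coding starts at Sirt5 and 3 at Sirt1, and none was called in any sample.

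Sirt7, the deleted gene, lies on the minus strand of chromosome 11, from 120618371 to 120625014. Its nearest peak was 7647, 7686 and 7856 bp upstream in Sirt7-/- replicates 2, 3 and 4, and 8076 and 7816 bp upstream in WT replicates 2 and 4. In WT replicate 3 the nearest peak was 6941 kb away. These 5 peaks overlapped one another and lay 67 to 147 bp inside Mafg, the gene for a small Maf transcription factor, downstream of the start that the promoter table gives for it. The nearest start of any gene in the gene table was that of Gm17586, 270 to 350 bp from them. Their folds were 4.18, 5.32 and 5.77 in the Sirt7-/- samples and 5.17 and 4.85 in the WT samples. They were the peaks nearest to the 3000 bp limit on its outer side, and the one at Pxn was the farthest inside it. Of 17 other protein-coding starts within 100 kb of Sirt7, 8 were called in a Sirt7-/- sample and 3 in a WT sample, where the shares over all genes were 19.3% and 5.12%. The same counts were 3 and 1 of 11 around Sirt2, 2 and 0 of 14 around Sirt3, 2 and 1 of 4 around Sirt4 and 1 and 0 of 8 around Sirt6. Neighbouring starts can share a peak. The gene start closest to that of Sirt7 was Mir6936, a miRNA gene 138 bp inside Sirt7, and no sample had a peak there. Peak lists hold no reads over Sirt7, so they cannot check the deletion. The Sirt7 promoter is shown up to the end of Mafg (chr11:120624965-120625116, minus strand, ETS core in capitals).
Sirt7 promoter: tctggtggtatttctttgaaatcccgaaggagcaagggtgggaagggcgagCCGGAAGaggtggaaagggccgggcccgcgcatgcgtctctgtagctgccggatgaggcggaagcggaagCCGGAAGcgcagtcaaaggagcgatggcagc

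**Figure D3:**
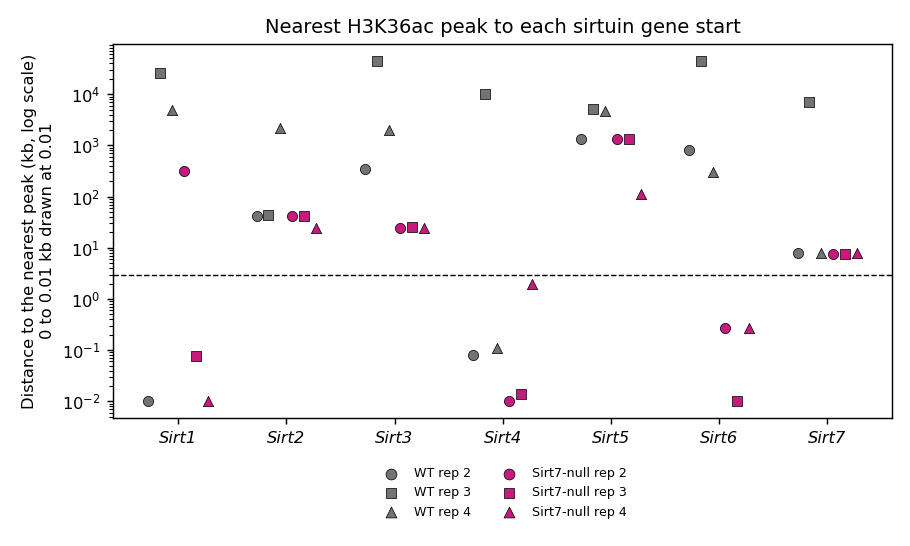
Distance from each sirtuin gene start to the nearest H3K36ac peak in each of the 6 samples (kb, log scale; grey, WT; pink, Sirt7-/-; circles, squares and triangles, replicates 2, 3 and 4; dashed line, the 3000 bp limit; the shortest distances are drawn on the lowest tick). Sirt7 has 5 points near 8 kb and Sirt3 has its 3 Sirt7-/- points near 25 kb, while the WT replicate 3 points are the highest for 6 of the 7 genes.

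No sirtuin had a gene-body peak outside the start window in any sample. All 7 genes are longer than the window, at 6006 to 29815 bp, and of the 18266 protein-coding genes longer than 3000 bp, 3.28% had such a peak in at least 1 sample. A count of 0 among 7 is near that share.

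The sirtuin promoters differed in sequence. The promoter table of GRCm38.p6 matched all 7 genes and gave 9 windows of 300 bases. CpG counts were 47 at Sirt1, 23 and 24 at the Sirt3 starts, 20 and 21 at the Sirt6 starts, 17 at Sirt7, 16 at Sirt2 and 15 at Sirt4 and Sirt5. The median was 28 over the 886 genes in that table called in all 3 Sirt7-/- samples and 9 over the 14030 called in none of the 6 samples. All 7 sirtuins thus had more CpG than the median uncalled gene, and Sirt2, Sirt3, Sirt5 and Sirt7 had it with no call. Sirt3 had more CpG than Sirt6.

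**Figure D4:**
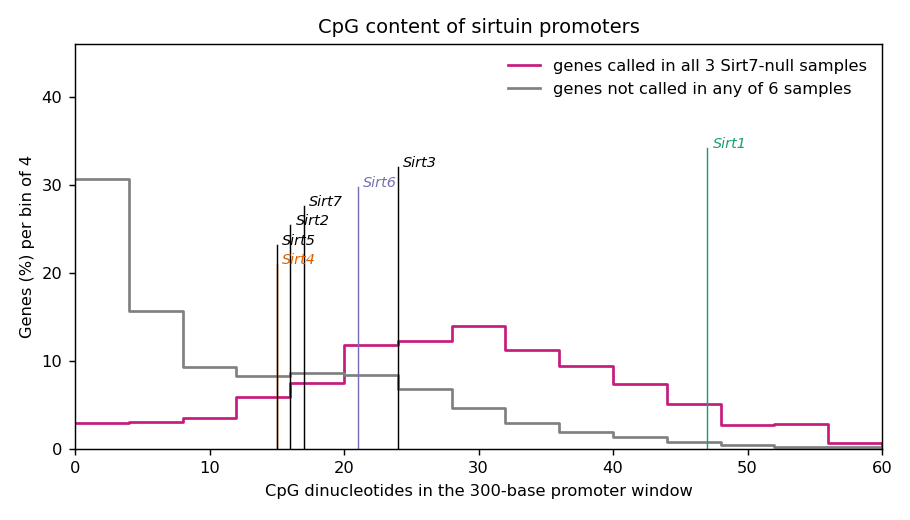
Number of CpG dinucleotides in the 300-base promoter window (x axis) as the share of genes (%) per bin of 4, for genes called in all 3 Sirt7-/- samples (pink) and in none of the 6 samples (grey), with counts over 59 in the last bin. Vertical lines mark the sirtuins, with the richer window where a gene has 2, and Sirt1 stands at 47 while the others lie between 15 and 24.

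A few promoter motifs were searched on both strands of these windows. The ETS core CCGGAAG, which ETS-family factors bind, occurred 2 times at Sirt7, 1 time at Sirt6 and 1 time at the outer Sirt3 start, and in 8.86% of all 32851 windows of the table. The palindromic NRF1 consensus, whose 10 letters are the first run of capitals in the Sirt6 promoter, occurred 1 time at Sirt6 and in 0.971% of windows. The E-box CACGTG occurred 2 times at Sirt1 and in 7.15% of windows. The GC box GGGCGG occurred 7 times at Sirt1, with overlapping matches counted, 4 times at the inner Sirt3 start and 1 time each at Sirt2, Sirt5, Sirt7 and the inner Sirt6 start, and in 35.7% of windows. CCAAT occurred 2 times at Sirt2, 1 time at Sirt5 and 1 time at the inner Sirt3 start, and in 37.4% of windows. TATAAA occurred in none of the 9 windows and in 13.6% of all windows. In the 9 windows the only matches that shared bases were 2 GC boxes at Sirt1. The ETS core and the GC box were thus found in sirtuins with start peaks and without, CCAAT in Sirt2, Sirt3 and Sirt5, which had none, and the E-box and the NRF1 consensus in 1 called gene each. Of genes called in all 3 Sirt7-/- samples, 18.8% had the ETS core, 72.8% the GC box and 30.7% CCAAT. Of genes called in none of the 6 samples the shares were 9.76%, 40.0% and 40.2%. For the E-box they were 13.1% and 6.97%, and for the NRF1 consensus 2.82% and 0.962%. The sirtuins are too few to set against these shares, and a link between motif and call was not tested. The Sirt4 window is that of the inner start, which no peak reached. At Sirt6 the ETS core and NRF1 matches lay inside the peak of Sirt7-/- replicate 3 alone.

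Genes that act with sirtuins were set beside them in lists. Over all protein-coding genes, 19.3% had a start peak in at least 1 Sirt7-/- sample and 5.12% in at least 1 WT sample, against 3 and 2 of the 7 sirtuins. None of the 19 genes on the NAD synthesis list, such as Nampt and Nmnat1, had a start peak in any of the 6 samples. These named genes act in making NAD+, the co-substrate of sirtuins, while some others on the list convert or carry it. None of the 6 other NAD consumers, such as Parp1, had a start peak. The H3K36 acetyltransferase genes Kat2a and Kat2b had none either.

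Among 10 regulators and partners, 3 were called in a Sirt7-/- sample and 2 in a WT sample. Elk4, an ETS factor that recruits SIRT7 to promoters, had a start peak in all 3 Sirt7-/- samples, with folds of 4.51, 4.51 and 4.57, and in WT replicate 2, with a fold of 4.79. Smarca5, the chromatin remodeller recruited by SIRT6, had the same calls, with folds of 4.48, 4.49 and 5.91 in Sirt7-/- replicates 2, 3 and 4 and 5.11 in WT replicate 2. Both genes thus had calls in each genotype.

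Of 27 genes for sirtuin substrates, 10 (37.0%) were called in a Sirt7-/- sample and 1 (3.70%) in a WT sample. Most of the 10 were called in 1 sample only. The count per Sirt7-/- sample ran from 3 to 9, highest in replicate 2, which had the longest list. The gene with WT calls was Ep300, a histone acetyltransferase gene, with a start peak in all 6 samples. Its folds were 4.88, 4.73 and 4.79 in WT replicates 2, 3 and 4 and 5.70, 6.26 and 4.60 in the Sirt7-/- replicates. Rela, a subunit of NF-kappaB, had the calls of Sirt6, with folds of 3.75, 5.24 and 3.48 in Sirt7-/- replicates 2, 3 and 4 and no WT peak. Foxo1, a forkhead factor, was called in Sirt7-/- replicates 2 and 3, with folds of 4.36 and 3.84, and in no other sample. Counting start peaks in at least 2 Sirt7-/- and no WT samples, which 6.47% of all genes had, the substrates gave 2 of 27, the sirtuins 1 of 7 and the regulators 0 of 10.

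The zinc-dependent deacetylases, HDAC1 to HDAC11, remove the same acetyl group without NAD+ and were compared as the family most like the sirtuins. Of their 11 genes, 2 were called in a Sirt7-/- sample and 1 in a WT sample. Hdac2, which encodes a class I nuclear deacetylase, had a start peak in all 3 Sirt7-/- samples, with folds of 3.40, 6.18 and 4.60, and in WT replicates 2 and 3, with folds of 4.48 and 5.18. The Hdac2 peak of WT replicate 3 was also the nearest one to Sirt1 and Sirt6 in that sample, 26364 and 44653 kb away. Hdac5, of class II, was called in Sirt7-/- replicates 3 and 4, with folds of 4.40 and 4.34. The difference between the families was not tested.

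**Figure D5:**
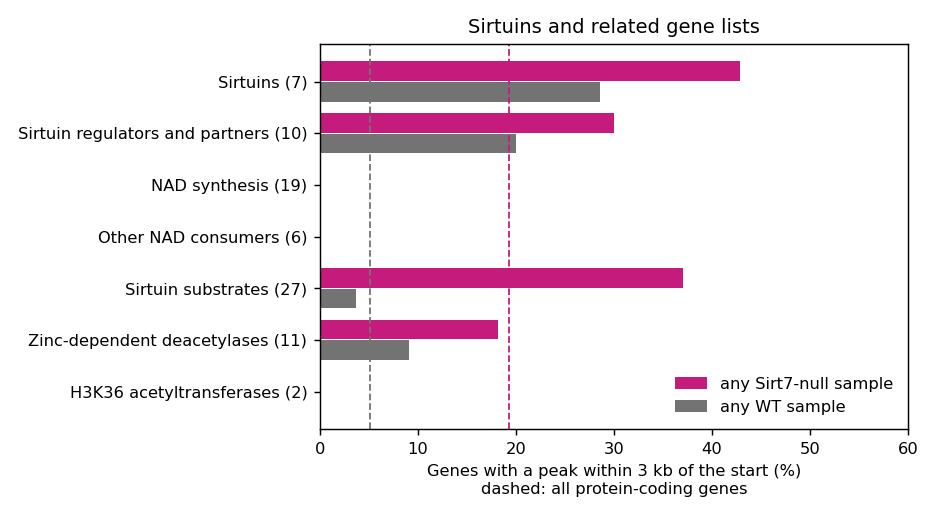
Share of genes (%) with a peak within 3 kb of the start in at least 1 Sirt7-/- sample (pink) and in at least 1 WT sample (grey) for the sirtuins and each list, with the number of genes in brackets and the share over all protein-coding genes as dashed lines (19.3% and 5.12%). The NAD lists and the acetyltransferases have bars at 0, and the sirtuins rest on 7 genes.

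In the peak lists the cell type could be checked only through calls at marker genes, and a peak is not a measure of expression. By flow cytometry, the paper reports that most cells isolated this way carried PLZF, a marker of undifferentiated spermatogonia, and shows it for WT cells. Of 14 spermatogonial genes, 5 (Zbtb16, Gfra1, Etv5, Dazl and Uchl1) had a start peak, each in 1 Sirt7-/- sample and no WT sample. Of the somatic genes, 1 of 4 for Sertoli cells (Sox9), 0 of 4 for Leydig cells, 0 of 3 for peritubular cells and 0 of 3 for macrophages had one. No marker was called in more than 1 sample. Over all protein-coding genes, 19.3% had a start peak in at least 1 Sirt7-/- sample. The lists are too short for these counts to tell the cell types apart. The part of either cell type in the sirtuin calls was not tested.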

How the data were processed

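H3K36ac was mapped by ChIP-seq in 3 WT and 3 Sirt7-/- samples, and 6 input libraries entered only as controls for peak calling. Per the labels, MACS2 2.2.5 made the peaks from reads aligned to mm10 (Bowtie2 2.4.4.1) and handled with SAMtools 1.19.2. Broad peaks were called in each sample against input, without pooling. A spike-in panel was added, and no factor from it was applied. Each deposited list holds peak positions, a score that is the authors' -log10 q scaled to whole numbers and was not used, their fold enrichment as a ratio, and -log10 p and -log10 q values. Fold, p and q were used only within a list.

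Gene positions came from the RefSeq table of GRCm38.p6, which has 1 start per gene. Of 21887 protein-coding genes, 17492 took their strand from the RefSeq promoter table of the same build and 3948 from GENCODE vM39 by symbol and chromosome. The sources differed for 101 genes, for which the promoter table was used. Genes without a strand were left out. Exons and introns were not separated. Sequences are from RefSeq (GRCm38.p6).

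Calls per gene were compared with Fisher's exact test, two-sided, with Benjamini-Hochberg adjustment over all genes. The samples come from separate mice. Ranks count from the highest fold. The genes named are the sirtuins, gene starts within 3000 bp of theirs, list members with start peaks in at least 2 Sirt7-/- or any WT samples (at most 8 a list), the 3 most alike genes per called sirtuin (1 of them is not reported here), and the gene start nearest to the closest peak of an uncalled sirtuin. Spermatogonial and somatic markers are named as a check, and Nampt, Nmnat1, Parp1, Kat2a and Kat2b as examples chosen after their values were seen. The sirtuins, lists and tests were chosen with earlier results of these data known. Gene ends, windows, thresholds and list lengths were varied as alternatives. The start call was tested on 2000 simulated peaks over 21440 genes and was correct for 100%. These peaks were placed only near starts far from any other protein-coding start. Close pairs such as Sirt6 and Ankrd24 were not simulated. Tests ran in SciPy 1.17.1 on Python 3.11.15, tables in pandas 2.3.3 and plots in matplotlib 3.10.9.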

Additional observations from a re-analysis of the deposited data

How the results depend on the processing

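The difference between genotypes in the number of called sirtuins (1.67 per sample as reported, Sirt7-/- minus WT) kept its direction with windows of 1000 and 5000 bp, a -log10 q of at least 2, either gene end as start, peak midpoints and the starts of the promoter table, the last chosen after seeing the data. It reversed to -0.333 with peaks at least 500 bp wide, fell to 0 with 64 peaks, the length of the shortest list, taken from each sample, and was 0.667 at a common minimum of -log10 p (5.99), also chosen after seeing the data. With 64 peaks no sirtuin was called in any sample, so the 0 rests on no calls. Leaving out 1 sample gave 1.17 (without WT replicate 3) to 2.17 (without WT replicate 2). Sirt6 kept its call in 3 Sirt7-/- and 0 WT samples in 5 of these alternatives. Its difference was 0 at a -log10 q of at least 2, at the common -log10 p and with equal list lengths, and 1 with peaks at least 500 bp wide. The difference for Sirt1 (1 as reported) was 0 under those 4 alternatives. That for Sirt4 (1 as reported) was 0 with 1000 bp, with equal list lengths and with the promoter-table starts, and reversed to -2 with peaks at least 500 bp wide, which removed all its Sirt7-/- peaks and kept both WT peaks. Without 1 sample the differences ran from 0 to 2 for Sirt1, from 0 to 2 for Sirt4 and from 2 to 3 for Sirt6. These are differences in the number of samples, so leaving out a called sample changes them by itself. Sirt6 stayed called in every remaining Sirt7-/- sample and in no WT sample. Without WT replicate 3, Sirt4 was called in every remaining sample.

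The number of genes called in at least 2 Sirt7-/- and no WT samples was 1 for the sirtuins, 2 for the substrates, 1 for the zinc-dependent deacetylases and 0 for the regulators. With a -log10 q of at least 2 it was 0 for the substrates and the zinc-dependent deacetylases and 1 for the sirtuins, through Sirt4 instead of Sirt6, since Sirt4 lost both WT calls there (a difference of 3). With 500 bp, the common -log10 p or equal list lengths it was 0 for the sirtuins, the substrates and the zinc-dependent deacetylases. The share over all protein-coding genes fell too, from 6.47% as reported to 4.32% with a -log10 q of at least 2. It was 3.38% with 500 bp, 3.13% at the common -log10 p and 0.0606% with equal list lengths. The count was 2 for the zinc-dependent deacetylases with either gene end, and 1 for the regulators with the promoter-table starts. Leaving out 1 sample gave 1 to 2 sirtuins, 0 to 2 regulators, 1 to 2 substrates and 0 to 1 zinc-dependent deacetylases. Without WT replicate 2 the count was 2 for the sirtuins and 2 for the regulators. It was 0 throughout for the NAD lists and the acetyltransferases. The median rank of the sirtuin peaks, 56.0% by fold, was 68.1% by -log10 q, 66.7% by -log10 p, 50.02% by width and 63.8% without the peaks near Sirt4, the last chosen after seeing the data, and ran from 47.7 to 58.1% without 1 sample. No gene-body peak appeared under any alternative run. The cause of these changes was not tested unless given.

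The calls cannot decide whether the replicate numbers pair the samples. Same-numbered samples of the 2 genotypes had correlations of -0.0415, -0.0711 and 0.0106 over 4233 called genes. With the replicate block the mean difference was 1.67 and the exact sign-flip test, two-sided, gave p = 0.25 for Sirt6, the smallest that 3 pairs allow.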
